A study of Schizosaccharomyces pombe with 2 samples.

Results

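Histone deacetylase genes of the fission yeast Schizosaccharomyces pombe and genes of the silencing complex SHREC were followed in cells labelled pob3 and in wild-type cells. The 10 genes were taken by name from the spots of the array: clr1, clr2, clr3 and mit1, which encode SHREC subunits; clr6, pst1 and pst2, which encode a class I deacetylase and Sin3-type scaffolds that it works with; and the sirtuin genes sir2, hst2 and hst4. Of these, 8 gave a usable signal on both arrays, among 4757 genes that did so in all. Total RNA of both strains was hybridised together to each of 2 spotted arrays of open reading frames, with pob3 RNA in the dye Cy5 and wild-type RNA in Cy3 on replicate 1 and the dyes exchanged on replicate 2. Each probe was printed as duplicate spots. The labels give no allele for the pob3 strain, no growth conditions, and nothing on whether separate cultures were grown for the arrays. The spread behind each p-value is therefore only that of these arrays and may be technical. Pob3 is a subunit of FACT, the histone chaperone that travels with RNA polymerase, and the series concerns FACT in heterochromatin at centromeres. The question followed here is whether transcripts of the enzymes that remove acetyl groups from histones differ in the pob3 strain.

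Deacetylases take acetyl groups off histone tails, and chromatin that has lost them is bound by silencing factors and transcribed less. In fission yeast Clr3 is the catalytic subunit of SHREC, where Mit1 is an ATP-driven Snf2-family remodeller and Clr1 and Clr2 are further subunits. SHREC acts at centromeres, telomeres and the silent mating-type region. Clr6 is an essential deacetylase that acts broadly on genes and repeats in complexes built on Pst1 or Pst2. Sir2, Hst2 and Hst4 are of the sirtuin family and use NAD as a cofactor, unlike the zinc-dependent Clr3 and Clr6.

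None of the 8 measured deacetylase and SHREC transcripts passed the test for a difference between the strains. The count was 0 of 8 at an adjusted p of 0.05 (limma, Benjamini-Hochberg over all genes), where 0.652% of all genes passed (0.547% higher and 0.105% lower in pob3). The adjusted p-values of the 8 ran from 0.588 to 0.992. An unadjusted p below 0.05 was reached by 2 of 8, hst2 and pst1, both lower in pob3, against 7.42% of all genes in either direction and 2.94% in the lower one. By the 2-fold threshold that the submitters used, 0 of the 8 exceeded it on either array, where 6.12% of all genes did, and 0.967% of all genes did so in the same direction on both. The missed thresholds do not show equal levels: limma's 95% intervals extended by 0.55 to 0.68 on the log2 scale to each side of the mean, and their outer bounds over the 8 genes were -1.19 and 0.96. The ratios compare total RNA of whole cultures, so a change within each cell and a change in the share of cells that make the transcript cannot be told apart.

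All values that follow are on the log2 scale of pob3 over wild type, given for each array as the mean of its spots, then as mean ± SD over the arrays (n = 2, which limits their precision). The 8 genes fell into 3 patterns. The transcripts of hst2, pst1 and clr3 were lower in pob3 on both arrays, 3 of 8 where 25.6% of all genes were. Another 5 of the 8 had opposite signs on the arrays, against 47.7% of all genes, and these were sir2, hst4 and pst2, higher on replicate 1 and lower on replicate 2 as were 23.2% of all genes, and clr6 and mit1, the reverse, as were 24.5%. None of the 8 was higher on both arrays, where 26.8% of all genes were. Over the 8 genes the median ratio was -0.13, with -0.11 on replicate 1 and -0.49 on replicate 2, beside a median of 0.02 over all genes.

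**Figure D1:**
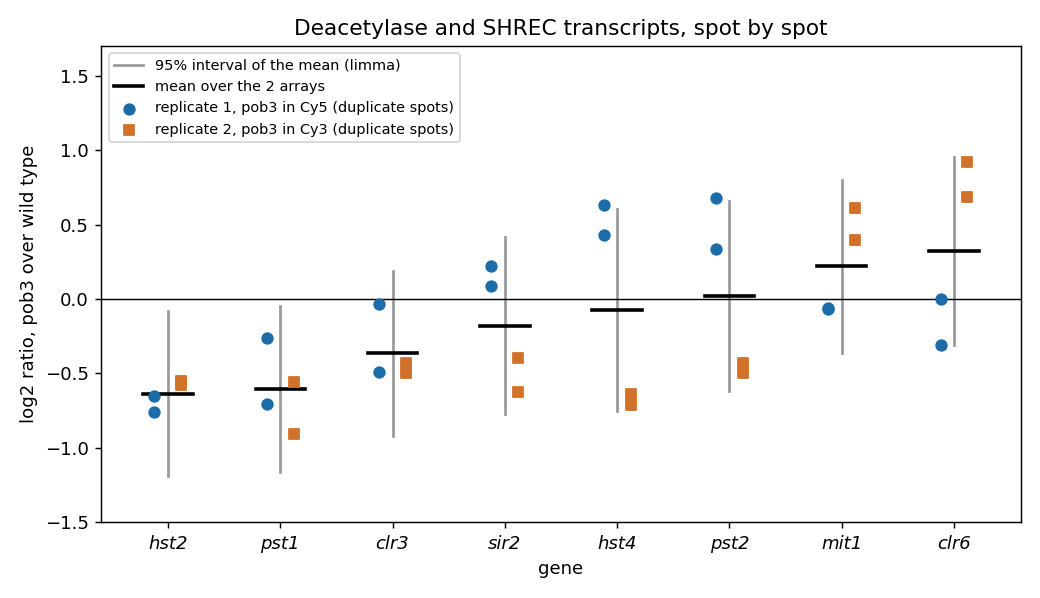
Log2 ratio of pob3 over wild type (vertical axis) for each of the 8 measured genes (horizontal axis), with a point per duplicate spot, circles for replicate 1 and squares for replicate 2, the mean over both arrays as a black bar and limma's 95% interval as a grey line. All 4 spots of hst2, pst1 and clr3 lie below 0, while in the other 5 genes the spots of one array lie on the opposite side of 0 from those of the other array.

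The SHREC genes come first. For clr3, the deacetylase subunit, the spots of replicate 1 gave 4664 and 4508 in the pob3 channel against 1993 and 1358 in the wild-type channel, and those of replicate 2 gave 3516 and 3070 against 5912 and 5520. The brighter channel on each array was Cy5, so the raw signals do not rank the strains, and the ratios below are those after the intensity-dependent dye correction. The clr3 ratio was then -0.26 on replicate 1 and -0.46 on replicate 2, a mean of -0.36 ± 0.14 with an interval from -0.92 to 0.19 (adjusted p = 0.807, limma). Every one of its 4 spots lay below 0, from -0.50 to -0.04. The interval spans from 1.89-fold lower to 1.14-fold higher in pob3.

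The transcript of mit1, the remodeller of SHREC, was read at 2782 and 2874 (pob3) against 738 and 767 (wild type) on replicate 1, and at 1347 and 1827 against 1764 and 1812 on replicate 2. Its ratios were -0.06 and 0.50, a mean of 0.22 ± 0.40 (interval -0.36 to 0.80, adjusted p = 0.913). The arrays thus did not share a direction for mit1.

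The other SHREC subunit genes gave no ratio. The clr1 probe, listed under its systematic name SPBC2D10.17, read 10 to 17 in Cy3, over local backgrounds of 9 to 16. In Cy5 it read 486 to 613, over 459 to 598. On none of its 4 spots was the signal more than 2 background SDs up in Cy3 or 1.5 times the background in Cy5. The only spots for clr2 are marked as missing on the array and read 553 to 721 in Cy5 and 7 to 17 in Cy3. With no filter on spots, clr1 had a nominal ratio of -0.23 ± 0.08 (adjusted p = 0.906), a value made of background brightness. Neither gene can be placed by these arrays.

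**Figure D2:**
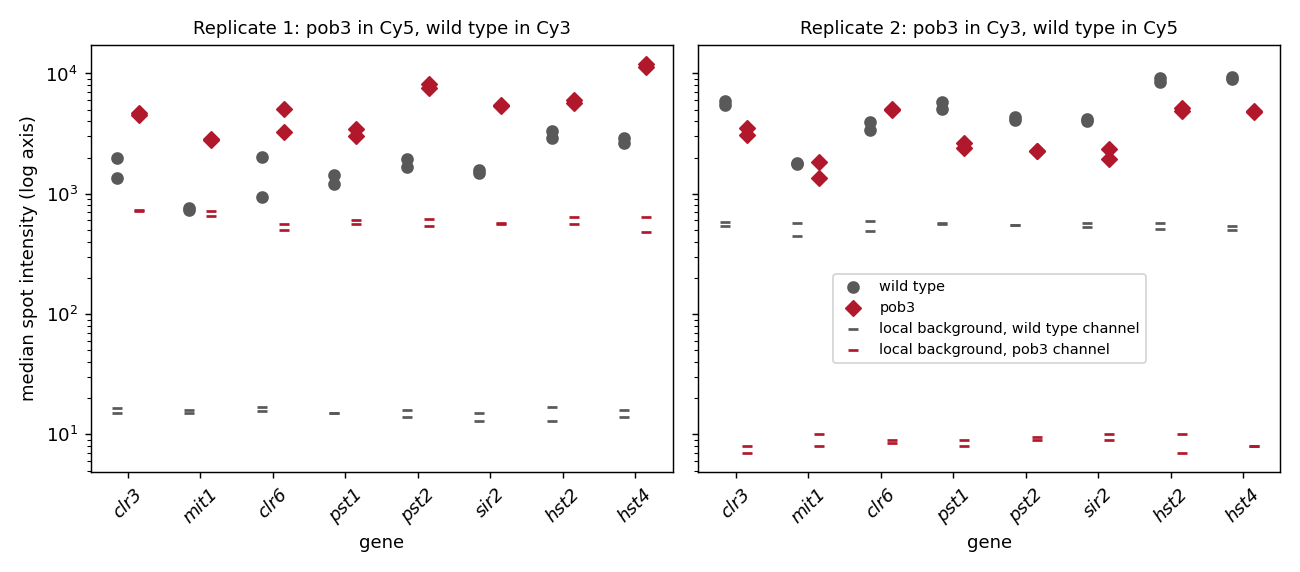
Median spot intensity on a log axis for the 8 measured genes, in the wild-type channel (circles) and the pob3 channel (diamonds), with the local background of each channel as dashes, for replicate 1 (left, pob3 in Cy5) and replicate 2 (right, pob3 in Cy3). The Cy5 signals are 3.09 to 23.6 times their background and the Cy3 signals 46.1 to 697 times theirs, and 0 of the 32 spots are saturated.

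Of the Clr6 group, pst1 had the lowest ratio. Pst1 is the Sin3-type scaffold of the Clr6 complex that acts mainly at promoters. Its spots read 3475 and 3025 (pob3) against 1207 and 1420 (wild type) on replicate 1, and 2651 and 2402 against 5073 and 5794 on replicate 2. The ratios were -0.48 and -0.73, a mean of -0.61 ± 0.18 or 1.52-fold lower in pob3 (interval -1.17 to -0.05, unadjusted p = 0.0354, adjusted p = 0.627, limma). The direction was shared by all 4 spots, which ranged from -0.91 to -0.26, but 305 other genes measured on both arrays had a mean ratio further from 0.

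The catalytic subunit gene clr6 read 3281 and 5097 (pob3) against 944 and 2013 (wild type) on replicate 1, and 5038 and 4967 against 3399 and 3972 on replicate 2. Its ratio was -0.16 on replicate 1 and 0.80 on replicate 2, a mean of 0.32 ± 0.68 (interval -0.31 to 0.96, adjusted p = 0.858). The replicate 2 value was the highest of any of the 8 genes on either array, and replicate 1 did not share its direction.

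The transcript of pst2, which encodes the scaffold of the Clr6 complex found mainly over transcribed regions, read 8238 and 7505 (pob3) against 1664 and 1948 (wild type) on replicate 1, and 2285 and 2276 against 4132 and 4311 on replicate 2. The ratios were 0.51 and -0.46, which cancelled to 0.02 ± 0.68 (interval -0.62 to 0.66, adjusted p = 0.992). The pst2 transcript was thus higher in pob3 on one array and lower on the other by nearly the same amount.

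Among the sirtuin genes hst2 was the lowest, and it had the smallest p of the 8 genes. Hst2 is a sirtuin that takes part in silencing. Its spots read 5721 and 5980 (pob3) against 2886 and 3335 (wild type) on replicate 1, and 5162 and 4882 against 9191 and 8550 on replicate 2. The ratios were -0.71 and -0.57, a mean of -0.64 ± 0.10 or 1.55-fold lower in pob3 (interval -1.19 to -0.08, unadjusted p = 0.0279, adjusted p = 0.588, limma). All 4 spots lay between -0.76 and -0.55, the closest agreement between arrays among the 8 genes, and 272 other genes had a mean further from 0.

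For sir2, a sirtuin needed for heterochromatin to spread, the spots read 5507 and 5333 (pob3) against 1479 and 1584 (wild type) on replicate 1, and 2353 and 1928 against 4176 and 4066 on replicate 2. Its ratios were 0.15 and -0.51, a mean of -0.18 ± 0.47 (interval -0.77 to 0.41, adjusted p = 0.935). The arrays did not share a direction.

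The transcript of hst4, a sirtuin that acts on the core of histone H3 in newly replicated chromatin and is needed for genome stability, gave the widest disagreement of the 8. Its spots read 11328 and 11977 (pob3) against 2890 and 2621 (wild type) on replicate 1, and 4870 and 4804 against 9049 and 9313 on replicate 2. The ratios were 0.53 and -0.68, a mean of -0.07 ± 0.85 (interval -0.75 to 0.61, adjusted p = 0.972). Duplicate spots within each array differed far less than the arrays did, lying at 0.43 and 0.63 on replicate 1 and at -0.64 and -0.71 on replicate 2, so after dye correction hst4 was brighter in Cy5 on both arrays. The deviation of replicate 1 from the mean of both arrays was 0.60 for hst4, 0.48 for pst2, 0.33 for sir2, -0.48 for clr6 and -0.28 for mit1. With 1 array per dye orientation, a difference that goes with the dye and one that goes with the array or its RNA cannot be told apart.

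**Figure D3:**
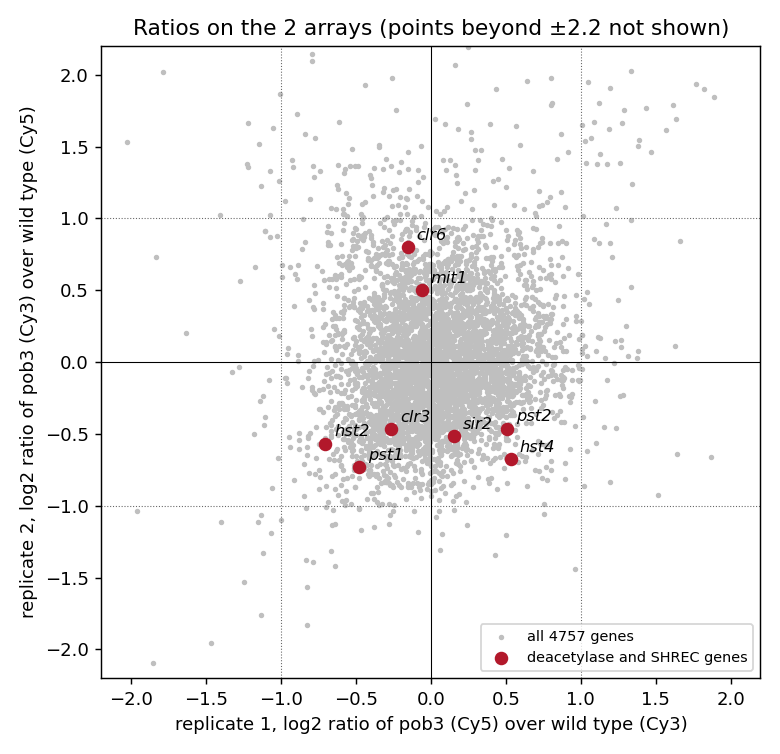
Log2 ratio of pob3 over wild type on replicate 1 (horizontal axis) against replicate 2 (vertical axis) for all 4757 genes (grey) and the 8 measured deacetylase and SHREC genes (red), with dotted lines at 2-fold. Only hst2, pst1 and clr3 share a sign on both axes, and none of the 8 reaches a dotted line.

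The spread of these genes between arrays has to be read beside that of the arrays as a whole. Across all genes the ratios of the arrays correlated weakly (r = 0.154 over 4757 genes, which are not independent replicates), against 0.754 and 0.843 between duplicate spots within replicates 1 and 2. The median SD between arrays over all genes was 0.26. Of the 8 genes hst2, clr3 and pst1 lay below that SD and the other 5 above it. The pob3 transcript, the check of the strain label, had -1.40 and -1.11, a mean of -1.26 ± 0.20 that missed the threshold (adjusted p = 0.0553, limma), with adjusted p-values from 0.000782 to 0.376 over the settings tried. Its partner gene spt16 had -0.01 ± 0.12.

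The ratios differed between positions on the array. The spots lie in 32 blocks, 8 rows by 4 columns, and the median ratio over gene spots went from -0.12 on replicate 1 and -0.20 on replicate 2 in the first column of blocks to 0.09 and 0.25 in the fourth. The probes of hst2, pst1 and clr3, the genes lower on both arrays, all lie in the first column. The block of hst2 had the lowest median of the 32 (-0.25 and -0.34 on the arrays), that of pst1 the third lowest (-0.19 and -0.27), and that of clr3 had -0.10 and -0.27. The probe of mit1 lies in the block with the highest median (0.30 and 0.22), and that of clr6 in one with 0.01 and 0.34. Of the remaining genes, hst4 and sir2 had means below 0 in blocks with medians above 0, and pst2 lay near 0. The probe of hst4 (mean -0.07) also lies in the fourth column, in a block with 0.16 and 0.11, and those of sir2 (mean -0.18) and pst2 (mean 0.02) share a block of the second column with 0.13 and 0.0046.

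When the dye correction was fitted within each block, the ratios of hst2, pst1 and clr3 kept their sign and shrank. The hst2 ratio was then -0.34 ± 0.15 (-0.44 and -0.23 on the arrays, adjusted p = 0.954, limma), in place of -0.64. For pst1 the value was -0.38 ± 0.13 (-0.29 and -0.47, adjusted p = 0.912), and for clr3 -0.17 on each array (adjusted p = 0.998). The clr6 mean fell to 0.06, the mit1 mean turned to -0.11 and the pst2 mean to -0.0021. The means of sir2 and hst4 moved further below 0, from -0.18 to -0.22 and from -0.07 to -0.15. Over the 8 genes the median was -0.16, in place of -0.13. All 5 genes with opposite signs on the arrays kept them: hst4 had 0.45 and -0.76, pst2 0.42 and -0.42, clr6 -0.30 and 0.41, and mit1 -0.31 and 0.09. For sir2 the values were 0.0029 and -0.45, so its sign on replicate 1 rests on a ratio close to 0.

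**Figure D4:**
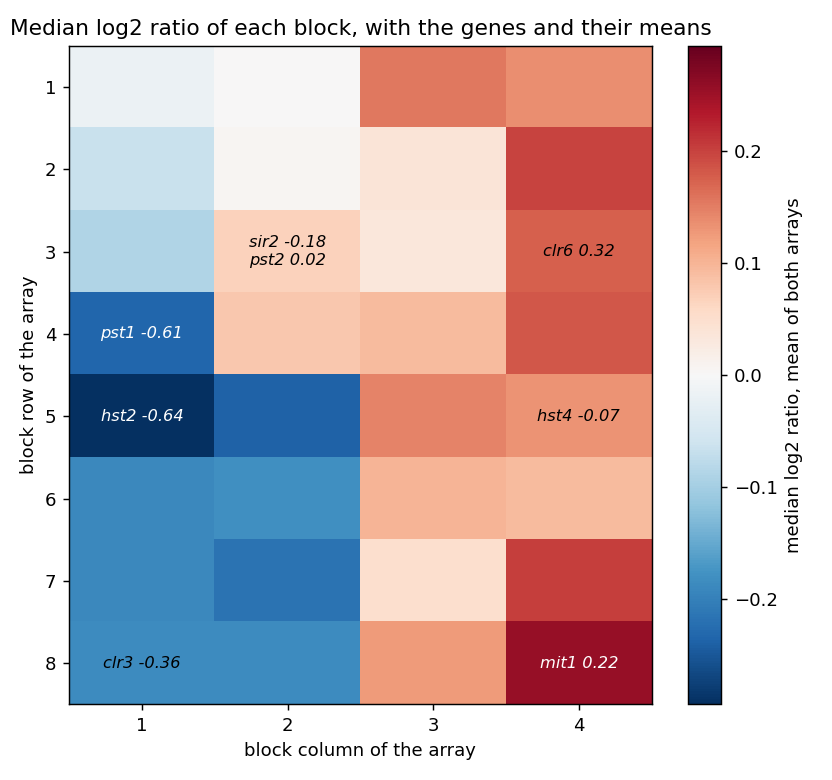
Map of the 8 by 4 blocks of the array, coloured by the median log2 ratio of pob3 over wild type over their gene spots (mean of both arrays), with each measured gene written in its block beside its mean ratio. The first column of blocks is blue (lower) where hst2, pst1 and clr3 lie, and the fourth column red (higher) where mit1, clr6 and hst4 lie, although the mean of hst4 is -0.07.

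Partners of these enzymes were read in lists of related genes, each described by its counts. In the list of SHREC subunits with the factors that recruit it, 0 of 7 measured genes passed the test in either direction and the median of the mean ratios was 0.22. On the single arrays the list had medians of -0.01 and 0.02, and with the dye correction fitted within blocks the median was 0.0142. The recruiting transcription factor gene pcr1 had 0.32 ± 0.08, the telomere-binding protein gene taz1 had 0.32 ± 0.50, and chp2, the HP1 protein that brings in SHREC, had -0.30 ± 0.41. Only pcr1 of these had an SD well below its mean, with 0.27 and 0.38 on the arrays (adjusted p = 0.832, limma).

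Of the 19 genes listed for Clr6 complexes, all measured, 0 passed, 13 had means above 0, as had 52.0% of all genes, and the median was 0.07. On the single arrays the medians were 0.14 and -0.02, and with the dye correction fitted within blocks the median was 0.0037. The lowest beside pst1 was rxt2 at -0.60 ± 0.11 (-0.67 and -0.52, adjusted p = 0.639, limma). The highest were dep1 at 0.59 ± 0.32 and cph1 at 0.55 ± 0.25. The list was not divided by complex. Subunit genes of the Clr6 complexes thus lay on both sides of 0, and 12 of the 19 had opposite signs on the arrays.

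The remaining class I deacetylase gene, hos2, was listed with the Set3 complex in which its product works. It had 0.03 ± 0.40, with -0.25 and 0.31 on the arrays, and 0 of the 4 genes of the list passed. The scaffold genes set3 and snt1 had 0.42 ± 0.44 and -0.24 ± 0.44. For the opposing activity, the list held genes of histone acetyltransferases and of proteins that work with them. Of its 14 measured genes 0 passed, and 10 had means below 0, as had 48.0% of all genes. The enzyme genes gcn5, hat1 and elp3 had means of 0.26, 0.33 and 0.15, while mst2, rtt109 and naa40 had -0.16, -0.24 and -0.43. The median of the list was -0.12, with -0.08 and -0.20 on the arrays. It was -0.26 with the submitters' values for replicate 2, a setting that tested 3139 genes in place of 4757, so its median may not cover all 14. Values with the smallest p were -0.43 ± 0.10 for eaf6, a shared subunit of acetyltransferase complexes, -0.45 ± 0.63 for ptf1 and -0.43 ± 0.65 for naa40, a histone N-terminal acetyltransferase.

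In the list of histone H3 lysine methylation and HP1 genes, which act together with SHREC and the sirtuins in silencing, 0 of 10 passed and the median was 0.08. The methyltransferase gene clr4 had 0.66 on replicate 2, while on replicate 1 its wild-type channel was not above background and gave only a bound (adjusted p = 0.657, limma), and rik1, of the Clr4 complex, had 0.31 ± 0.07. Of the silent loci on the array that these enzymes keep down, 1 of 12 passed, where 0.652% of all genes did. It was the subtelomeric helicase gene tlh1, which rose by 4.11 ± 0.68 (adjusted p = 7.47e-05, limma). The Tf2 retrotransposon probes with the smallest p, Tf2-2 and Tf2-3, had 0.43 ± 0.03 and 0.40 ± 0.08. Over the 12 genes the median was 0.09, with 0.37 on replicate 1 and -0.23 on replicate 2. Of the 12, 4 had means below 0, as had 48.0% of all genes, and 8 had opposite signs on the arrays, as had 47.7%. Near-identical copies of tlh1 and of Tf2 share sequence, so a probe can report several of them.

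**Figure D5:**
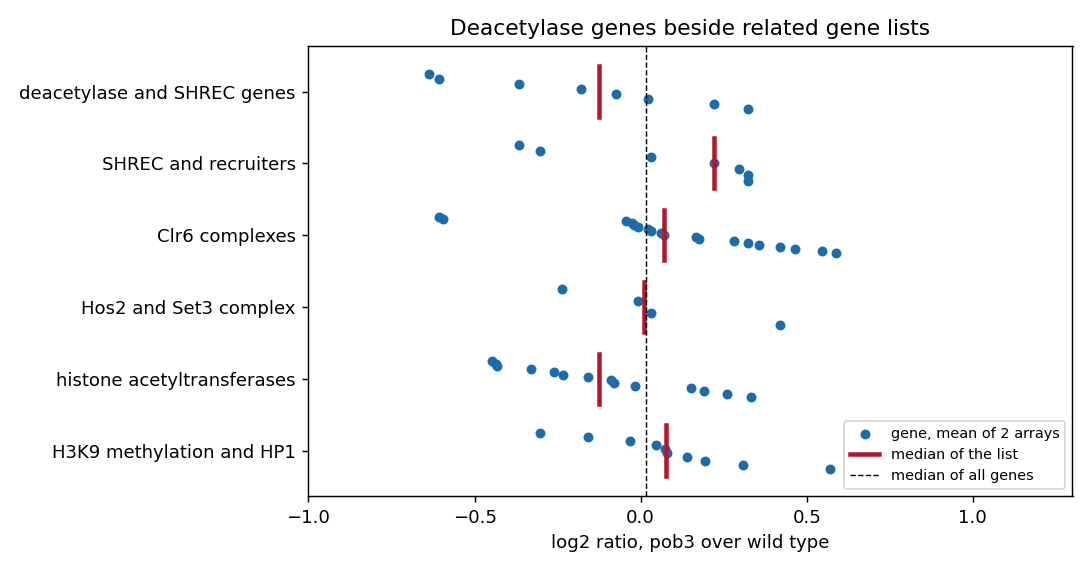
Mean log2 ratio of pob3 over wild type (horizontal axis) of each measured gene (points) in the deacetylase and SHREC set and in 5 lists of related genes, with the median of each list (red) and of all genes (dashed). Every list straddles 0, and the list medians lie between -0.13 and 0.22.

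Lists for other states of the cells gave values that bear on how the cultures compare. Of 10 stress genes 2 passed as higher in pob3, where 0.547% of all genes did. These were the small heat shock gene hsp16 (2.16 ± 0.76, adjusted p = 0.00871, limma) and hsp9 (adjusted p = 0.0431, limma). The pob3 channel of hsp9 was saturated on a spot of both arrays, so its mean of 1.32 is only a lower bound. All 10 means lay above 0, as did 52.0% of those of all genes, and the median of the list was 0.55. Of 9 measured genes of sexual differentiation and meiosis 0 passed, with a median of 0.22 over the means but 0.08 and 0.07 on the arrays and 0.06 with the dye correction fitted within blocks, and with 0.58 ± 0.06 for spo6, 0.40 ± 0.47 for ste11 and -0.30 ± 0.11 for map3. The part of the stress response in the deacetylase and SHREC ratios was not tested.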

How the data were processed

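The deposited scanner files give intensities, per the file headers the median brightness of each spot and its local background in each channel, named mutant and wild type, with the dyes taken from the labels. Each of 2 arrays has a file for each duplicate spot, with 5760 spots in 32 blocks. The software that read the spots was not given in the sources used here. Lowess in GeneSpring was what the authors used, per the design text of the series. The deposited value table holds log2 ratios by the authors. Those of replicate 2, matched by position on the array, correlated at 0.976 with the ratios computed below, as pob3 over wild type (median -0.04). The replicate 1 column holds 768 values with 36 distinct levels (median -0.12). Only 23 of its values fell on kept gene spots, and these correlated at 0.974 with the ratios computed below, as pob3 over wild type. Its scale and centring are unknown here, and no result uses it.

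Signals were background-corrected by normexp with an offset of 50, then normalised by loess per file, giving weight 0 to control spots (limma 3.58.1, R 4.3.3). Ratios were turned to pob3 over wild type. Spots were kept with a flag of 0 and a signal more than 2 background SDs up in Cy3, or 1.5 times the background in Cy5, and averaged per gene and array. The files name no channel for the SD, which was taken to be that of Cy3. The median gene spot had a Cy3 signal of 1982 to 4441 over a background of 8.5 to 16, and a Cy5 signal of 5077 to 6308 over 545 to 599. The mean was tested against 0 with lmFit and eBayes, with Benjamini-Hochberg adjustment over 4757 genes. With 1 residual degree of freedom it rests on the spread pooled over genes. In 20 simulated data sets of 4757 genes with 200 changed, it recovered a median of 100% of 4-fold and 46% of 2-fold changes, with 7.86% false calls. The simulated noise was independent between genes and arrays and held no dye or block effect. The real arrays differ between blocks, so these rates need not hold for them.

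Of 4885 gene names 4649 matched 1 locus of the RefSeq table (ASM294v3), used for names only; the array's own build was not given in the sources used here. Not analysed were 687 control spots, 154 names that the array marks as missing and 23 reporter, intergenic, intronic or date names. The members and lists were chosen with earlier results of these data known. Named list genes are the up to 3 with the smallest p that are not members, and any past the threshold. Alternatives tried were the background correction, offset, normalisation, scaling, spot filter, spot set, prior trend, threshold and single arrays. Sequences were not used here.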

Additional observations from a re-analysis of the deposited data

How the results depend on the processing

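The alternatives with the submitters' values for replicate 2 and with loess on gene spots alone were chosen after the data were seen. Under every setting tried 0 of the deacetylase and SHREC genes measured in it passed. With the submitters' values for replicate 2, only mit1, sir2 and hst2 of the 8 had a value, and 3139 genes were tested in place of 4757. The count of 31 genes past the threshold over all genes was 2 with median centring and 55 with print-tip loess and also without background correction. It was 48 with the second spots alone, 72 with the submitters' values for replicate 2 and 53 at a threshold of 0.10. The 46 genes over 2-fold on both arrays were 154 at 1.5-fold and 126 to 224 with a single array. Of the 8 genes, mit1 turned to -0.11 with print-tip loess and pst2 to -0.0021 with print-tip loess and -0.0825 with the second spots alone. Single arrays gave clr6 at -0.16 to 0.80, mit1 at -0.0612 to 0.50, sir2 at -0.51 to 0.15, hst4 at -0.68 to 0.53 and pst2 at -0.46 to 0.51. Over the settings with both arrays hst2 ranged from -0.67 to -0.34, pst1 from -0.81 to -0.38 and clr3 from -0.46 to -0.17, with smallest adjusted p-values of 0.434, 0.326 and 0.755 (limma). The pob3 ratio passed at -1.48 with print-tip loess, -1.15 without background correction, -1.26 with both channels above background, with an intensity trend or with loess on gene spots alone, -1.32 with the second spots and -1.37 with the submitters' values. The causes of these shifts were not tested. Each array holds both strains, so the test of the mean ratio against 0 is already paired within arrays, and both arrays form 1 group.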
